A study of Gallus gallus with 54 samples.

Results

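ADGRD2, ANGPTL7 and GLDN are 3 protein-coding genes of the chick that stood high in retinas given a muscarinic antagonist. They were picked by symbol from a table of 24599 gene entries, of which 15746 passed a filter on low counts, and all 3 were among those that passed. The symbols were chosen because earlier results of these same libraries had shown them high after atropine and pirenzepine. Their differences between those groups and the other groups are therefore given as a description, with standard errors and without a test.

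RNA was sequenced from whole retina of male White Leghorn chicks in 54 libraries, which fall into 14 groups: 7 conditions, each at 4 h and 24 h. All birds were raised for 6 days with 12 h of light a day, and their labels give an age of 7 days in the 4 h groups and 8 days in the 24 h groups. The conditions were no treatment; a translucent diffuser over the eye, which deprives it of form vision and makes it grow too long (form-deprivation myopia, FDM); FDM with an intravitreal injection of atropine, pirenzepine, ADTN or TPMPA; and recovery, where birds wore the diffuser for 3 days and lost it 4 h or 24 h before collection. In the injected 24 h groups a repeat injection was given 4 h before collection. There were 4 libraries a group, and 3 in recovery at 4 h and in untreated retina at 24 h. Untreated, FDM and recovery birds received no injection by their labels, and no group given vehicle alone was analysed here, so drug and injection cannot be told apart in a comparison with FDM. The labels state neither doses nor whether each library came from its own bird, and p-values measure only the spread between these libraries.

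Acetylcholine acts in the retina partly through muscarinic receptors, which couple to G proteins. Atropine blocks the receptor subtypes with little preference, pirenzepine is more selective among them, and both are known to slow the excessive eye growth of FDM in chicks. ADTN activates dopamine receptors and TPMPA blocks GABA-C receptors, so both act on other retinal transmitters. ADGRD2 encodes an adhesion G-protein-coupled receptor, a family with long extracellular stretches, and its ligand is not established. ANGPTL7 encodes a secreted protein related to the angiopoietins, which in humans is known from the cornea and the trabecular meshwork and from studies of intraocular pressure. GLDN encodes gliomedin, a membrane-anchored and secreted protein with an olfactomedin domain, which in rodents is made by Schwann cells and helps to cluster sodium channels at nodes of Ranvier.

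The libraries held 7.4 to 24.8 M counts each (median 14.8 M). Levels are given as CPM, a gene's counts scaled to a common library size after TMM normalisation. The summed level of 19 retinal neuron genes was 3328 to 5232 CPM over all libraries. Pigment epithelium was also present in every library, with RPE65, an enzyme of the visual cycle, at 31.9 to 499 CPM. In bulk RNA fewer cells of a type and less RNA per cell cannot be told apart.

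In galGal5, the genome build of the deposited table, ADGRD2 (ENSGALG00000001094) lies on the plus strand of chromosome 17 from 9890242 to 9912922, with a transcript of 3164 bases. ANGPTL7 (ENSGALG00000003179) lies on the plus strand of chromosome 21 from 4165638 to 4170019, with a transcript of 1038 bases, inside the span of MTOR on the opposite strand. GLDN (ENSGALG00000013293) lies on the plus strand of chromosome 10 from 9240919 to 9255900, and the entry used has 1484 bases. GLDN has 3 transcript entries, whose counts were equal in 42 of 54 libraries and differed by at most 10 counts. Raw counts per library ran from 11 to 509 for ADGRD2, from 11 to 1192 for ANGPTL7 and from 0 to 260 for GLDN. ADGRD2 and ANGPTL7 had at least 10 counts in every library. GLDN reached 10 counts in 15 of 16 libraries given a muscarinic antagonist, in 8 of 16 given ADTN or TPMPA, and in 5 of 22 from birds without an injection, so its level outside the muscarinic groups rests on few reads.

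ADGRD2 was low in retinas without an injection. At 4 h its level was 1.36, 1.74, 1.88 and 1.92 CPM in the untreated libraries and 0.969, 2.70, 2.28 and 0.959 CPM in the FDM libraries. With atropine it stood at 20.8, 12.0, 18.1 and 13.4 CPM. With pirenzepine it stood at 7.77, 32.9, 35.7 and 26.8 CPM, so that every library of both muscarinic groups lay above every FDM library, and library 1 was the lowest of the pirenzepine libraries. The difference from FDM was 3.25 ± 0.55 with atropine and 3.93 ± 0.56 with pirenzepine on the log2 scale (SE).

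ADGRD2 also stood above FDM after the other injections at 4 h, at lower levels. ADTN libraries held 4.17, 5.64, 4.29 and 3.27 CPM, and TPMPA libraries held 5.41, 4.97, 4.62 and 3.35 CPM. All 16 libraries of injected birds at 4 h lay above the highest of the 11 libraries without an injection, which held 2.70 CPM. The differences from FDM were 1.36 ± 0.55 with ADTN and 1.45 ± 0.54 with TPMPA. Taken over both drugs of each kind, the muscarinic groups were higher than the ADTN and TPMPA groups by 2.18 ± 0.35, with no overlap between the 8 libraries of each kind.

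At 24 h ADGRD2 held 2.19, 1.65 and 3.06 CPM in untreated retina and 1.34, 1.78, 1.69 and 2.78 CPM in FDM. Pirenzepine libraries held 6.86, 26.1, 25.2 and 33.8 CPM, all above the FDM libraries, and library 1 was again the lowest. Atropine libraries held 2.82, 19.8, 2.47 and 18.4 CPM, so that libraries 2 and 4 stood high while libraries 1 and 3 lay in or near the FDM range. The differences from FDM were 2.50 ± 0.52 with atropine and 3.59 ± 0.54 with pirenzepine. ADTN libraries held 3.43, 3.20, 8.41 and 1.91 CPM and TPMPA libraries 2.45, 5.55, 1.18 and 2.74 CPM, and both overlapped FDM (differences of 1.17 ± 0.52 and 0.64 ± 0.54). The muscarinic groups were higher than these by 2.14 ± 0.36.

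**Figure D1:**
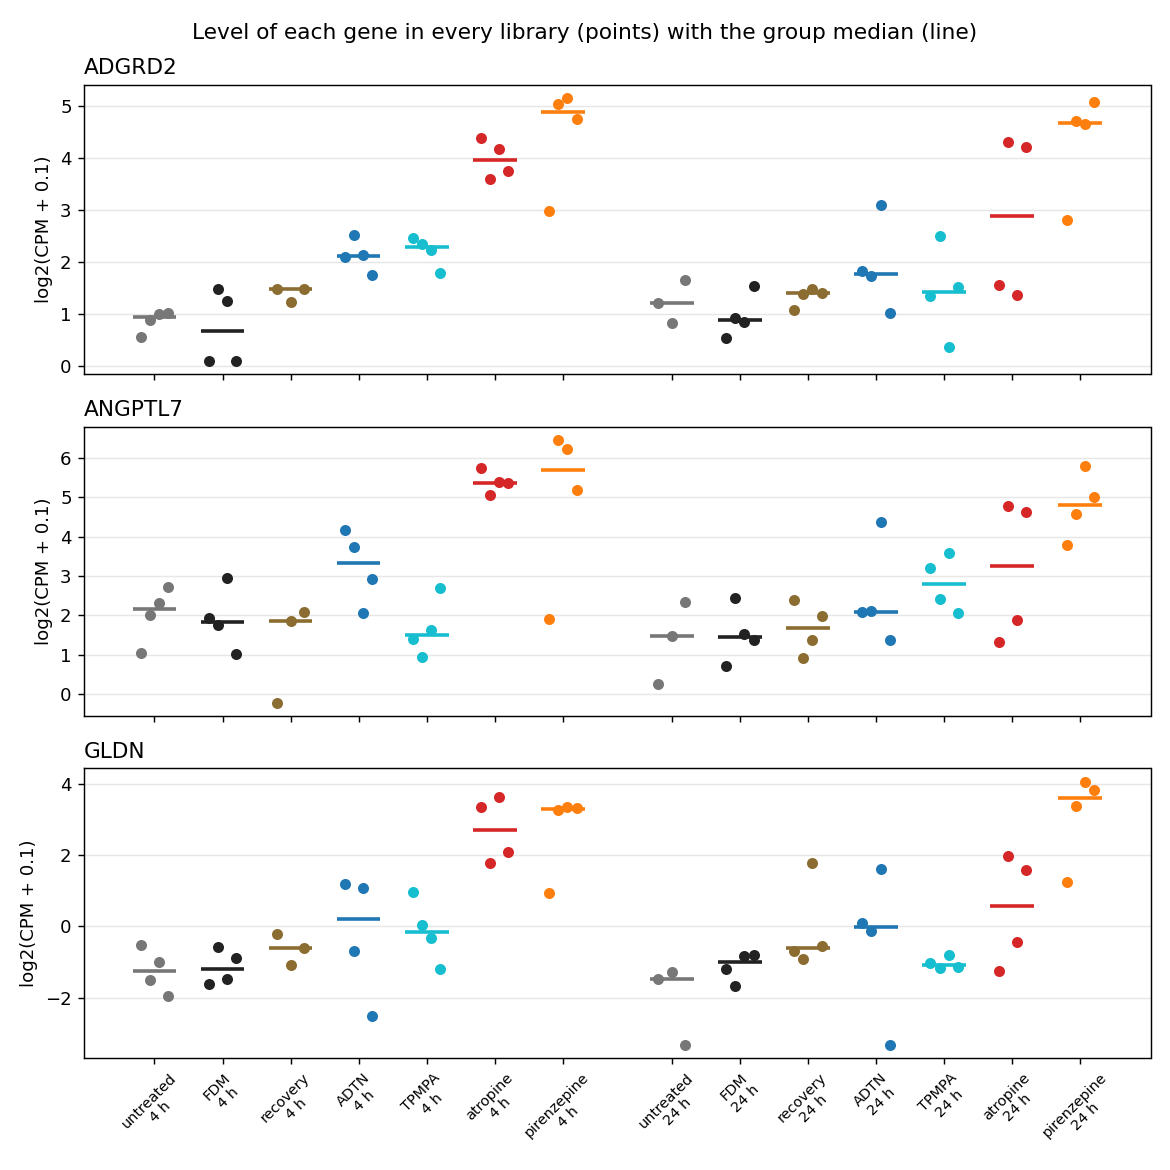
Level of ADGRD2, ANGPTL7 and GLDN in each of 54 libraries, as log2(CPM + 0.1) on the vertical axis, by condition and time; points are libraries and lines are group medians. The atropine and pirenzepine groups stand highest for all 3 genes at 4 h, and the atropine libraries at 24 h lie in a high and a low pair.

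ANGPTL7 held 1.95, 3.95, 4.90 and 6.48 CPM in untreated retina at 4 h and 3.73, 3.26, 7.63 and 1.92 CPM in FDM. With atropine the libraries held 53.3, 33.1, 42.1 and 40.8 CPM, all above FDM. With pirenzepine they held 3.69, 88.1, 75.0 and 36.1 CPM, so that 3 libraries lay far above FDM and library 1 lay inside the FDM range. The differences from FDM were 3.32 ± 0.76 and 3.57 ± 0.76. ADTN libraries held 17.9, 13.3, 4.09 and 7.52 CPM and partly overlapped FDM, with a difference of 1.33 ± 0.74. TPMPA libraries, at 2.52, 1.81, 2.98 and 6.37 CPM, overlapped FDM, with library 2 just below the lowest FDM library and a difference of -0.35 ± 0.77. The muscarinic groups were higher than the ADTN and TPMPA groups by 2.95 ± 0.52.

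At 24 h ANGPTL7 held 1.10, 2.68 and 4.98 CPM in untreated retina and 1.54, 5.33, 2.79 and 2.49 CPM in FDM. Pirenzepine libraries held 13.8, 24.0, 55.1 and 32.3 CPM, all above FDM (3.37 ± 0.76). Atropine libraries held 2.42, 27.2, 3.59 and 24.7 CPM, with libraries 2 and 4 high and libraries 1 and 3 inside the FDM range (2.25 ± 0.75). ADTN libraries held 4.11, 4.20, 20.8 and 2.51 CPM, and the difference of 1.41 ± 0.75 rests on library 3, without which it was 0.28. TPMPA libraries held 9.12, 5.21, 11.9 and 4.07 CPM, with a difference of 1.32 ± 0.76. The muscarinic groups were higher than the ADTN and TPMPA groups by 1.45 ± 0.50.

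The deposited counts do not say whether they were made by strand, so reads of MTOR could be counted for ANGPTL7. MTOR, a kinase of growth signalling, stood at 137 to 240 CPM, and its log2 difference between the muscarinic groups and FDM ran from -0.07 to 0.03. Tested neighbours were PSMB7 and NR5A1 for ADGRD2, EXOSC10 for ANGPTL7, and ENSGALG00000004788 and DMXL2 for GLDN. None of these 5 genes, nor MTOR, passed the threshold of an adjusted p of 0.05 against FDM with atropine or pirenzepine at either time (edgeR's quasi-likelihood test with Benjamini-Hochberg adjustment). NR5A1, at a mean of 0.699 CPM, stood above FDM by 1.24 ± 0.95 with atropine and 2.75 ± 0.93 with pirenzepine at 4 h. At 24 h its differences were 1.24 ± 0.84 and 0.89 ± 0.85. Those of ENSGALG00000004788, at a mean of 0.929 CPM, ran from -0.99 to 0.90. At such low levels the lack of a call does not show that a gene was unchanged.

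GLDN was close to absent without a drug. At 4 h it held 0.591, 0.255, 0.403 and 0.160 CPM in untreated retina and 0.224, 0.568, 0.261 and 0.436 CPM in FDM. Atropine libraries held 10.1, 3.35, 12.4 and 4.14 CPM. Pirenzepine libraries held 1.82, 9.59, 10.02 and 9.85 CPM, and all libraries of both groups lay above FDM, with library 1 apart from the other pirenzepine libraries. The differences from FDM were 4.39 ± 0.87 and 4.44 ± 0.87, larger estimates than those of ADGRD2 and ANGPTL7 in the same libraries but with wide errors. ADTN libraries held 2.19, 0.520, 2.02 and 0.0760 CPM and TPMPA libraries 1.84, 0.933, 0.691 and 0.335 CPM. Both overlapped FDM, with differences of 1.80 ± 0.89 and 1.43 ± 0.90, and the muscarinic groups were higher than them by 2.80 ± 0.53.

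At 24 h GLDN held 0.258 and 0.315 CPM in untreated libraries 1 and 2 and 0 counts in library 3, which allows up to 0.262 CPM (3 counts, counting error only). FDM libraries held 0.335, 0.213, 0.465 and 0.474 CPM. Pirenzepine libraries held 2.26, 10.3, 16.6 and 14.1 CPM, all above FDM (4.82 ± 0.84). Atropine libraries held 0.322, 3.81, 0.635 and 2.90 CPM, with the same libraries 2 and 4 high (2.30 ± 0.83). ADTN libraries held 0.971, 0.816, 2.96 and 0 CPM (up to 0.301 CPM by the same limit) and TPMPA libraries 0.392, 0.342, 0.473 and 0.351 CPM. Their differences from FDM were 1.69 ± 0.83 and 0.05 ± 0.95, and the muscarinic groups were higher by 2.69 ± 0.56.

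The count of genes whose drug libraries did not overlap FDM can be set beside the same count over all 15746 genes, as a description only. With atropine at 4 h all 3 genes lay above FDM without overlap, as did 4.07% of all tested genes. With pirenzepine it was 2 of 3 at 4 h (all genes 4.19%) and 3 of 3 at 24 h (4.17%). With atropine at 24 h it was 0 of 3 (3.66%). With ADTN it was 1 of 3 at 4 h (3.09%) and 0 of 3 at 24 h (2.47%), and with TPMPA 1 of 3 at 4 h (3.35%) and 0 of 3 at 24 h (4.78%). The muscarinic libraries lay above all ADTN and TPMPA libraries for 1 of 3 genes at 4 h (0.216% of all genes) and 0 of 3 at 24 h (0.0381%). The 3 genes were chosen on such values, and the drug groups share the FDM libraries, so these shares test nothing.

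**Figure D2:**
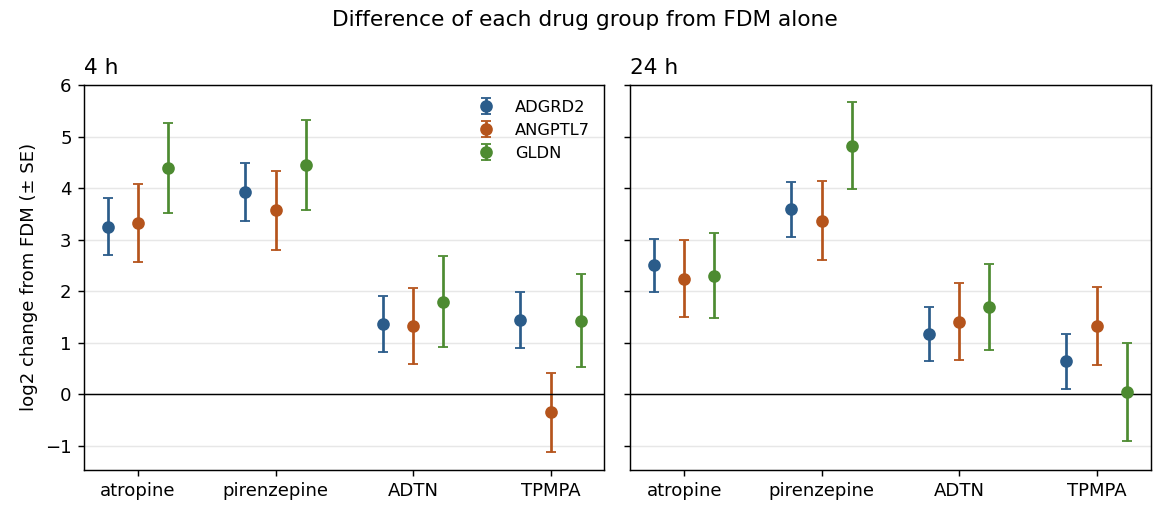
Log2 difference of each drug group from FDM at 4 h (left) and 24 h (right) for the 3 genes. Points are estimates of the quasi-likelihood fit. Bars are ± SE derived from its F statistic, with a spread shared by all 14 groups. Atropine and pirenzepine stand between 2.25 and 4.82, and ADTN and TPMPA between -0.35 and 1.80.

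Per kilobase of transcript, which allows a comparison between genes, ANGPTL7 was the most abundant of the 3. With pirenzepine at 4 h its mean level was 48.9 CPM per kilobase, against 8.15 for ADGRD2 and 5.27 for GLDN. In FDM at 4 h the mean levels were 3.98, 0.546 and 0.251 CPM per kilobase in the same order. By mean CPM the 4 muscarinic groups were the highest of the 14 for each gene, and by mean log2 CPM ADTN at 4 h (3.23) stood above atropine at 24 h (3.16) for ANGPTL7. ADGRD2 was highest with pirenzepine at 4 h (25.8 ± 12.6 CPM, SD, n = 4) and lowest in untreated retina at 4 h (1.73 ± 0.255 CPM). ANGPTL7 ran from 50.7 ± 38.3 CPM with pirenzepine at 4 h to 2.79 ± 1.79 CPM in recovery at 4 h (n = 3). GLDN ran from 10.8 ± 6.27 CPM with pirenzepine at 24 h to 0.191 ± 0.168 CPM in untreated retina at 24 h (n = 3). For all 3 genes the range of each group overlapped that of the next group in this order, so no neighbouring groups were separated beyond their spread.

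Libraries of a muscarinic group did not all reach the same level, and the 3 genes moved together among them. Library 1 was the lowest pirenzepine library for all 3 genes at both times. STAT3, a transcription factor of cytokine signalling that is not among the 3 genes, was also lowest there, at 372 CPM against 583, 591 and 549 at 4 h and at 348 against 539, 565 and 544 at 24 h. Among the atropine libraries at 24 h, STAT3 held 250, 497, 247 and 442 CPM, high in libraries 2 and 4 like the 3 genes, and the FDM libraries of the series held 191 to 226 CPM. The neuropeptide VIP did not follow that division, with 16.5, 15.2, 21.0 and 25.0 CPM in the same 4 libraries. In ADTN at 24 h, library 3 was the highest and library 4 the lowest for all 3 genes and for STAT3.

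Depth and tissue markers were read beside these libraries, and their part in the levels was not tested. Atropine libraries 1 to 4 at 24 h held 12.8, 13.2, 24.8 and 14.1 M counts, and their mean log2 CPM over 18 vessel and pecten genes was 2.96, 3.49, 0.885 and 1.04, a division of libraries 1 and 2 from 3 and 4. In pirenzepine at 4 h, library 1 held 21.3 M counts against 11.0 to 14.2 M in the others, and its vessel score of 0.764 lay within theirs (0.677 to 1.42). In pirenzepine at 24 h, library 1 had a vessel score of 4.16 against 0.491 to 1.39 in the others, and the leukocyte gene PTPRC stood at 13.1 CPM there against 3.47 to 3.90.

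**Figure D3:**
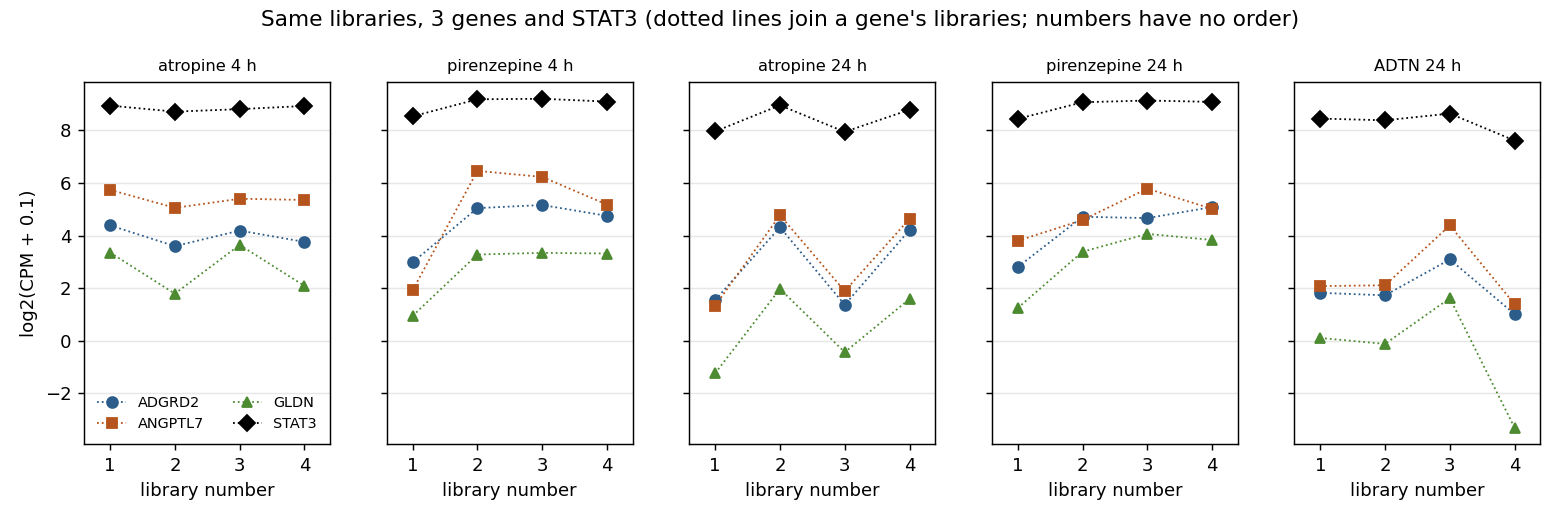
Level of the 3 genes and STAT3 in the libraries of 5 groups, as log2(CPM + 0.1) on the vertical axis against library number; dotted lines join the libraries of a gene, and numbers have no order. Pirenzepine library 1 is low at both times, and atropine libraries 1 and 3 at 24 h are low in all 4 genes.

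Over the 14 group means of log2 CPM the 3 genes had Pearson correlations of 0.90 to 0.96 with each other, and without the 4 muscarinic groups, on which they were chosen, 0.30 to 0.69 (10 groups). Within groups, over deviations of the 54 libraries from their group means, the correlation was 0.63 between ADGRD2 and ANGPTL7, 0.63 between ADGRD2 and GLDN and 0.40 between ANGPTL7 and GLDN. Spearman's rank correlations of the same deviations were lower, at 0.50, 0.55 and 0.25 in this order. The muscarinic libraries are among the 54. These are descriptions, since all values share the libraries and their depth. Among 10124 genes with a symbol and at least 2 CPM, those most like ADGRD2 over 14 group means were CBFB (0.98), a partner of RUNX transcription factors, CD274 (0.97), an immune checkpoint ligand, KBTBD2 (0.97) and STAT3 (0.97). Most like ANGPTL7 were GINM1 (0.94), CD274 (0.93), OCA2 (0.93), a melanosomal transporter, and HPX (0.93), the haem-binding hemopexin. Most like GLDN were RFFL (0.97), ADGRD2 (0.96), TNFRSF1A (0.96), a receptor for tumour necrosis factor, and CAST (0.96), the calpain inhibitor calpastatin.

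Without the muscarinic groups the order changed. STAT3 came first for ADGRD2 (0.97 over 10 group means), EOGT for ANGPTL7 (0.94) and KCNJ8, a potassium channel, for GLDN (0.95). With the muscarinic groups included, EOGT had a correlation of only 0.30 with ANGPTL7, while STAT3 kept 0.97 with ADGRD2 and KCNJ8 0.94 with GLDN. In each ranking of likeness the top values were picked from 10124 genes, and how high such values stand by chance was not tested. Within groups, over 54 libraries, PADI3, a peptidylarginine deiminase, was the most like ADGRD2 (0.85) and ANGPTL7 (0.70), and OCA2 (0.72) and STAT3 (0.69) were the most like GLDN. Spearman's values for these pairs were 0.71, 0.55, 0.57 and 0.54. PADI3 held 67.6, 287, 74.7 and 241 CPM in the atropine libraries at 24 h, the same high and low libraries as above. CBFB held 24.3, 97.1, 24.0 and 81.9 CPM in them. CUBN, the endocytic receptor cubilin and the next most like ANGPTL7 within groups (0.69), held 7.82, 26.6, 12.2 and 25.8 CPM.

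Comparisons other than the contrasts that chose the genes asked whether they differed with form deprivation, recovery from it, age or the antagonist given. The groups themselves entered the choice of the genes. The genes were chosen as high with atropine and pirenzepine, so the comparison of these drugs is not independent of that choice. None of the 3 genes passed an adjusted p of 0.05 in any of the 9 comparisons (edgeR's quasi-likelihood test), nor under DESeq2 or limma voom. The share of all tested genes that passed was 0.171% for FDM against untreated at 4 h, 0% at 24 h, 0.0381% and 0.654% for recovery against untreated, 0.349% and 1.17% for recovery against FDM, 0% and 0.197% for atropine against pirenzepine, and 0.0127% for untreated at 24 h against 4 h. At an unadjusted p under 0.05 there were 1136 genes for FDM against untreated at 24 h and 1208 for atropine against pirenzepine at 4 h, the 2 comparisons with 0 calls, where DESeq2 called 28 and 5. Of the 3 genes, an unadjusted p under 0.05 was reached by GLDN in recovery at 24 h against untreated (12.3% of all genes) and against FDM (13.3%), and by ADGRD2 and GLDN in atropine against pirenzepine at 24 h (11.6%).

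FDM and untreated retina at 4 h differed by -0.03, -0.01 and -0.02 on the log2 scale for ADGRD2, ANGPTL7 and GLDN, with 95% intervals of -1.18 to 1.11, -1.55 to 1.53 and -1.93 to 1.89. Changes within these bounds are not excluded by these libraries. At 24 h the differences were -0.27, 0.08 and 0.89, and each interval included 0. Untreated retina at 24 h and 4 h differed by 0.41, -0.58 and -0.81, also with intervals that included 0.

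Recovery birds had first worn the diffuser for 3 days, so their comparisons cannot tell its removal from that wear. In recovery, ADGRD2 held 2.67, 2.25 and 2.68 CPM at 4 h and 2.00, 2.52, 2.67 and 2.53 CPM at 24 h. ANGPTL7 held 0.754, 3.50 and 4.13 CPM, then 5.19, 1.78, 2.49 and 3.88 CPM. GLDN held 0.754, 0.375 and 0.558 CPM at 4 h and 0.519, 0.430, 3.34 and 0.588 CPM at 24 h, where library 3 stood apart. ADGRD2 and ANGPTL7 differed from untreated and from FDM by at most 0.59 in size at either time, with intervals that included 0. The recovery libraries lay above all untreated libraries without overlap for ADGRD2 at 4 h (3.95% of all genes) and for GLDN at 24 h (6.94%). GLDN at 24 h was higher than in untreated retina by 2.58 (0.48 to 4.68; adjusted p = 0.274) and than in FDM by 1.68 (0.00 to 3.37; adjusted p = 0.376) in edgeR's quasi-likelihood test. Without library 3 these differences were 1.32 and 0.43.

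Schwann cell genes were read beside that library. The summed level of 6 tested Schwann cell genes was 102 CPM in recovery library 3 at 24 h, against 59.3 to 67.6 CPM in the other recovery libraries and 50.1 to 54.6 CPM in FDM at 24 h. Within groups, over 54 libraries, the log2 of this sum had a correlation of -0.0088 with GLDN. The part of these genes in the GLDN level was not tested. At 4 h the same sum was 46.5 to 54.9 CPM in FDM, 37.8 to 67.7 CPM with atropine and 34.2 to 56.1 CPM with pirenzepine. Both drug ranges overlapped FDM, and the part of these genes in the GLDN level was not tested there either.

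Atropine and pirenzepine were compared directly, with the limit that the genes were chosen as high in both groups. At 4 h atropine was lower by 0.68 for ADGRD2 (95% interval -1.62 to 0.27), and the difference was -0.26 for ANGPTL7 (-1.59 to 1.08) and -0.05 for GLDN (-1.41 to 1.31). At 24 h the differences were -1.09 for ADGRD2 (-2.05 to -0.13; adjusted p = 0.356 in edgeR), -1.12 for ANGPTL7 (-2.50 to 0.25; adjusted p = 0.551) and -2.52 for GLDN (-3.98 to -1.05; adjusted p = 0.141). For GLDN 2 of 4 atropine libraries lay below every pirenzepine library, the adjusted p ran from 0.0610 to 0.351 over 10 other settings, and it ran from 0.0653 to 0.400 without single libraries. The difference between the 24 h and the 4 h value, added after the values were seen, was -2.46 for GLDN (-4.44 to -0.49, edgeR adjusted p = 0.473). It was -0.41 for ADGRD2 (-1.75 to 0.92) and -0.87 for ANGPTL7 (-2.78 to 1.04). Doses are not given here, so these values do not rank the drugs.

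**Figure D4:**
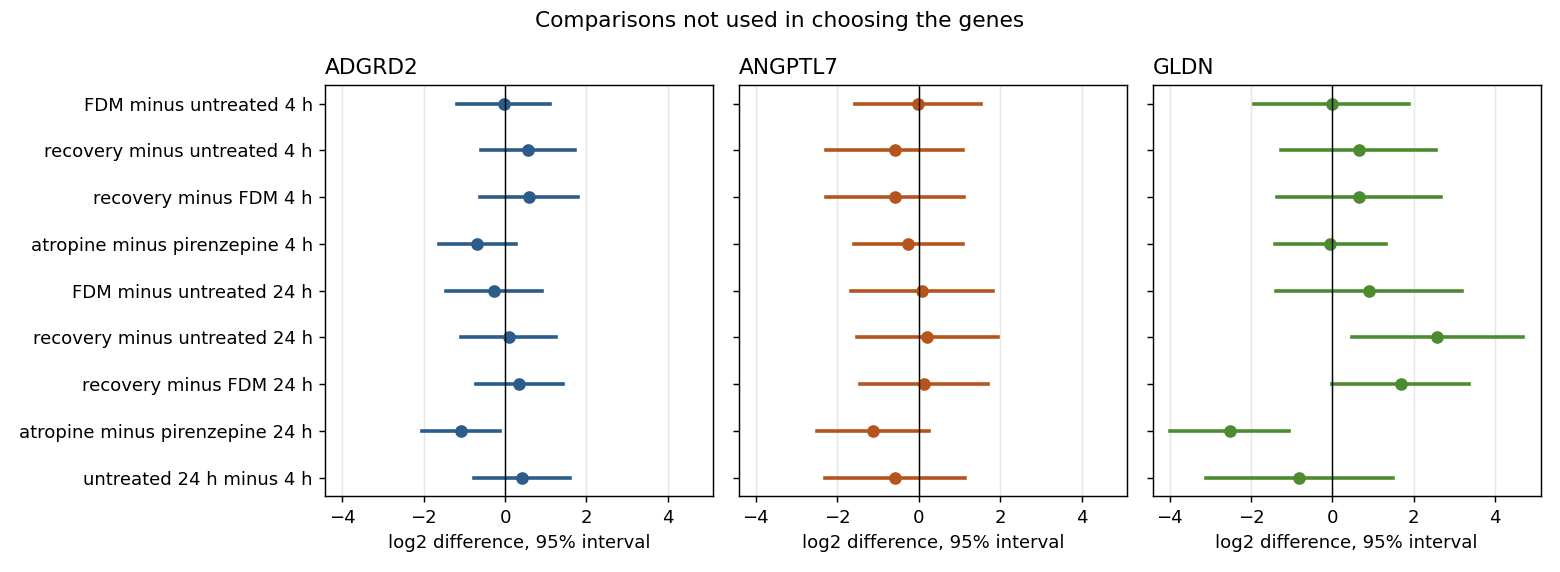
Log2 difference (points) with its 95% interval (lines) for the 3 genes in the 9 comparisons other than the contrasts that chose them. The genes were chosen as high with atropine and pirenzepine, so the comparison of these drugs is not independent of that choice. At 24 h the interval leaves out 0 for GLDN in recovery against untreated (2.58) and, barely, against FDM (1.68), and for ADGRD2 (-1.09) and GLDN (-2.52) in atropine against pirenzepine, and no difference passed the adjusted threshold.

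Genes related to the 3 by family or function were read from lists without the 3 genes. Of 14 tested adhesion G-protein-coupled receptors, 1 rose with atropine at 4 h (0.934% of all genes rose) and 1 with pirenzepine at 4 h (1.39% rose), in both cases ADGRG1. ADGRG1, which binds collagen in the developing cortex of mammals, stood at 77.1 ± 23.2 CPM with atropine and 66.0 ± 4.58 CPM with pirenzepine against 26.4 ± 3.80 CPM in FDM (SD, n = 4). It rose by 1.54 ± 0.28 and 1.32 ± 0.28 on the log2 scale (edgeR adjusted p = 0.0015 and 0.00611). The median change of the 14 receptors was -0.05 and -0.08, against -0.000632 and -0.000755 over all genes. ADGRG1 also rose with pirenzepine at 24 h, by 1.18 ± 0.28 (adjusted p = 0.0126, lost without FDM library 3 or pirenzepine library 3, up to 0.0767). ADGRB2, a brain member of the family, fell there from 221 to 164 CPM (adjusted p = 0.0108; 0.4% of all genes fell), a call lost without pirenzepine library 2 or 3 (up to 0.102) or with only the groups compared (0.101).

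Of 7 tested angiopoietins, angiopoietin-like factors and TIE receptors, none rose against FDM with either antagonist, and ANGPTL2, an inflammatory relative of ANGPTL7, fell with pirenzepine at 4 h from 21.4 to 8.13 CPM (-1.35 on the log2 scale; edgeR adjusted p = 0.0374; 0.699% of all genes fell). That call was lost without library 2, 3 or 4 of either group (adjusted p up to 0.181), and without a filter on low counts or with only the groups compared (up to 0.334). Of 10 tested olfactomedin-domain genes, OLFML3, a secreted matrix protein, rose with pirenzepine at 4 h and 24 h (1.39% and 1.23% of all genes rose). It went from 12.8 ± 1.89 to 31.8 ± 13.4 CPM at 4 h and from 12.5 ± 1.09 to 29.9 ± 11.4 CPM at 24 h (edgeR adjusted p = 0.00336 and 0.00411). With only the compared groups in the fit neither call held, and the 4 h call was also lost under limma voom (adjusted p up to 0.134 at 4 h and 0.0904 at 24 h). MYOC, the olfactomedin protein of the trabecular meshwork, did not pass against FDM. Of 7 genes linked to glaucoma only CYP1B1 did, falling with pirenzepine at 24 h from 47.8 to 24.6 CPM (edgeR adjusted p = 0.0431, 0.4% of all genes fell). The CYP1B1 call was lost without FDM library 2 or 3 or pirenzepine library 2, 3 or 4 (up to 0.269). It was also lost under 5 of 10 alternatives (up to 0.245): no filter, total count, vessel score, only the groups compared and limma voom.

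Gliomedin acts at the node of Ranvier. Of 14 tested genes of the node of Ranvier and axon initial segment, 0 passed against FDM with either antagonist at either time by edgeR, and 1 by DESeq2 at 4 h with each drug. Chick retinal axons are myelinated inside the eye, unlike those of most mammals, and of 11 tested myelin and oligodendrocyte genes and 6 tested Schwann cell genes 0 passed in those comparisons by edgeR. Over all genes 0.0953% to 1.39% rose and 0% to 0.699% fell in them, so counts of 0 in lists of this size are near that background. Of 8 tested muscarinic receptor and acetylcholine genes, CHRM2, CHRM3, CHRM4 and CHRM5 did not pass. CHRM5 and CHRM2 were low, at means of 1.99 and 4.58 CPM before TMM scaling. The receptor CHRM1 and the enzyme ACHE had no entry under these symbols, so they could not be read. SLC5A7, the choline transporter of cholinergic neurons, rose with pirenzepine at 24 h from 30.6 to 49.7 CPM (edgeR adjusted p = 0.0232, 1.23% of all genes rose). BCHE, butyrylcholinesterase, fell with atropine at 4 h from 58.6 to 38.1 CPM (edgeR adjusted p = 0.0495, 0.241% of all genes fell). The SLC5A7 call was lost without FDM library 1, 2 or 3 or pirenzepine library 2, 3 or 4 (adjusted p up to 0.119), and the BCHE call without any single FDM or atropine library (up to 0.149). With the vessel score or only the groups compared SLC5A7 did not pass (up to 0.0875). BCHE did not pass without a filter, with entries summed, with the vessel score or under limma voom (up to 0.072).

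Genes of the STAT3 response and of glial reactivity formed the list with the most calls. Of 13 tested members, 5 rose with atropine and 7 with pirenzepine at 4 h (0.934% and 1.39% of all genes rose). At 24 h 2 and 5 rose (0.0953% and 1.23% of all genes). The median changes in these 4 comparisons were 1.22, 1.41, 0.76 and 1.27. At 4 h the count ran from 2 to 8 with atropine and from 3 to 8 with pirenzepine over the alternatives, lowest under limma voom. Besides STAT3, GFAP, SOCS3 and SDC1, CEBPD rose with both antagonists at 4 h, and CISH and CEBPB rose with pirenzepine at both times. CISH, a feedback inhibitor of cytokine signalling, went from 12.7 to 33.6 CPM at 4 h (edgeR adjusted p = 0.00611), and CEBPB, a transcription factor, from 2.09 to 13.4 CPM (adjusted p = 0.0136, lost without FDM library 3 or pirenzepine library 2, up to 0.0508). Under limma voom CEBPB did not pass at either time (0.289 and 0.155). The list was chosen with earlier results of these data known, so its direction is no independent evidence. At 4 h STAT3 also stood at 254 to 450 CPM with ADTN and 301 to 351 CPM with TPMPA, against 191 to 207 CPM in FDM. A higher STAT3 level was therefore not particular to the muscarinic groups. The list's summed level was 1152 to 1797 CPM with ADTN and 1145 to 1311 CPM with TPMPA. It was 962 to 1255 CPM in FDM, 1359 to 1723 CPM with atropine and 1202 to 2049 CPM with pirenzepine. SOCS3, the feedback inhibitor induced by STAT3, stood at 23.1 ± 6.92 CPM with atropine and 32.4 ± 15.4 CPM with pirenzepine at 4 h against 0.781 ± 0.537 CPM in FDM (edgeR adjusted p = 0.00406 and 0.000899). SDC1, the proteoglycan syndecan-1, stood at 49.8 ± 7.23 and 62.6 ± 27.8 CPM against 1.88 ± 0.495 CPM (adjusted p = 0.00055 and 0.00019). At 24 h with atropine both genes passed (adjusted p = 0.0223), and both calls were lost without atropine libraries 2 or 4 or FDM libraries 1, 2 or 3 (adjusted p up to 0.249), and with only the groups compared or limma voom (up to 0.374). The SOCS3 call with pirenzepine at 24 h was lost under limma voom (0.0753). Under limma voom SOCS3 and SDC1 did not pass at 4 h with either drug (adjusted p from 0.0715 to 0.297). GFAP, a filament of reactive glia, rose by 2.02 ± 0.41 and 2.11 ± 0.42 at 4 h (adjusted p = 0.00505 and 0.00242).

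Among 8 genes that respond to glucocorticoids, which induce ANGPTL7 in human trabecular meshwork cells, CEBPD rose with atropine (0.934% of all genes rose) and CEBPD and MT4 with pirenzepine at 4 h (1.39%). FKBP5, TSC22D3, ZBTB16, SGK1, DUSP1 and ERRFI1 did not pass against FDM with either antagonist. The summed level of the 8 genes at 4 h was 528 to 639 CPM in FDM, 518 to 591 with atropine and 555 to 617 with pirenzepine. CEBPD, which is also in the STAT3 list, stood at 1.89 CPM in FDM and rose to 5.92 and 7.36 CPM (edgeR adjusted p = 0.0384 and 0.00658). The atropine call was lost without FDM library 2, 3 or 4 or any single atropine library (up to 0.176), and with the vessel score or limma voom (up to 0.132). The pirenzepine call was lost with only the groups compared or limma voom (up to 0.117). MT4 rose with pirenzepine from 5.72 to 15.4 CPM at 4 h (edgeR adjusted p = 0.00461), a call kept without any single library and under all 10 alternatives. At 24 h it rose from 5.34 to 13.7 CPM (edgeR adjusted p = 0.00555, 1.23% of all genes rose). That call was lost only without pirenzepine library 2 (0.0552). Of 9 tested feedback genes of the Wnt pathway, SFRP1, a secreted Wnt antagonist, fell from 391 to 239 CPM with atropine and 247 CPM with pirenzepine at 4 h (adjusted p = 7.01e-05 and 0.000177; 0.241% and 0.699% of all genes fell), and none rose. The summed level of these genes at 4 h was 601 to 729 CPM in FDM, 471 to 511 with atropine and 462 to 539 with pirenzepine. It was also below FDM with ADTN (457 to 582 CPM), with TPMPA (550 to 574 CPM) and in untreated retina (580 to 596 CPM). A lower sum than in FDM was therefore not particular to the muscarinic groups.

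Markers of other tissues were read at 4 h, and their part in the levels of the 3 genes was not tested. Over all genes 0.934% rose and 0.241% fell with atropine, and 1.39% rose and 0.699% fell with pirenzepine. These shares apply to all the tissue lists that follow, and a count of 0 in lists of this size is near them. Of 18 vessel and pecten genes only KDR, a receptor for vascular growth factor, rose with each antagonist (0.52 and 0.69 on the log2 scale). The list's summed level was 692 to 916 CPM in FDM, 849 to 1324 with atropine and 803 to 1081 with pirenzepine. SLC2A1 and KDR had the highest mean levels of the list, at 471 and 334 CPM before TMM scaling, so the sum depends largely on them. CDH5, an adhesion protein of endothelium, stood at 0 to 10.6 CPM in FDM, 0 to 40.1 with atropine and 0 to 1.75 with pirenzepine. The list's sum did not always follow CDH5. Atropine library 1 at 4 h held 40.1 CPM of CDH5 and a sum of 1324 CPM. Pirenzepine library 3 at 24 h held 0 CPM of CDH5 and a sum of 1017 CPM. Of 13 pigment epithelium genes OCA2 rose with each antagonist (1.30 and 1.44), and the summed level was 221 to 1277 CPM in FDM, 607 to 1490 with atropine and 340 to 1227 with pirenzepine.

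Of 14 tested sclera, cartilage and fibroblast genes MATN3 rose with each antagonist at 4 h, from 1.21 to 6.32 and 7.05 CPM (edgeR adjusted p = 0.0218 and 0.0098). The atropine call was lost without FDM library 1, 2 or 4 and the pirenzepine call without FDM library 4 (adjusted p up to 0.123 and 0.0587), and both were lost under limma voom (0.134 and 0.0844). The summed level of that list was 141 to 309 CPM in FDM, 183 to 347 with atropine and 112 to 267 with pirenzepine, and CHAD, COL3A1, COL6A1 and FMOD of that list had counts in every library. MATN1 and OGN had 0 counts in 44 and 43 of 54 libraries. None of 6 tested cornea and anterior segment genes passed against FDM with an antagonist. Their sum was 159 to 209 CPM in FDM, 164 to 227 with atropine and 165 to 206 with pirenzepine, and KERA, keratocan of the corneal stroma, stood at 11.0 to 35.8 CPM over all libraries. ALDH3A1 and TP63 had counts in every library, while the corneal keratins KRT5 and KRT15 had 0 counts in 41 and 21 libraries. None of 7 tested lens genes passed, with sums of 11.6 to 14.5, 11.0 to 14.4 and 11.1 to 16.7 CPM in the same order.

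None of 13 leukocyte and microglia genes passed, with sums of 123 to 135 CPM in FDM, 131 to 245 with atropine and 83.3 to 115 with pirenzepine. Of 8 tested Müller glia genes, the main glia of the retina, GFAP rose with atropine at 4 h. GLUL, glutamine synthetase, fell from 1480 to 978 CPM, and AQP4, a water channel, from 241 to 185 CPM (edgeR adjusted p = 0.0212 and 0.0152). The AQP4 call was lost without FDM library 2 or atropine library 1 or 2 (up to 0.0881) or with total count as a covariate (0.0941). The GLUL call was lost without FDM library 2 or atropine library 1, 2 or 3 (up to 0.215), and with total count or only the groups compared (up to 0.168). With pirenzepine GFAP and SOX2, a progenitor and glial transcription factor, rose (SOX2 lost without FDM library 4, adjusted p = 0.0759). Sums of the Müller list were 2897 to 4187, 2470 to 3405 and 2586 to 3647 CPM. In untreated retina at 4 h the Müller sum was 2469 to 3039 CPM, which overlapped both antagonist ranges. GLUL stood there at 1024 to 1302 CPM, against 836 to 1259 CPM with atropine and 1166 to 1917 CPM in FDM. Of 19 retinal neuron genes ARR3, cone arrestin, fell with atropine from 606 to 400 CPM (adjusted p = 0.0431), and 0 passed with pirenzepine. That call was lost without FDM library 2 or 4 or atropine library 1, 2 or 4 (up to 0.321), and under the same 5 alternatives as CYP1B1 (up to 0.254). The sums of the neuron list were 4129 to 5232, 3596 to 4235 and 3828 to 4382 CPM. In untreated retina at 4 h the neuron sum was 3920 to 4312 CPM, which overlapped both antagonist ranges.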

How the data were processed

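Per the labels' protocols, RNA was extracted with Trizol (RNA integrity number above 7.0), and directional libraries were read in pairs on a NextSeq 500. Trimmomatic 0.36, HISAT2 2.1, HOMER, edgeR, limma and the build galGal5 appear in the submitters' processing notes, without roles. Whether counting used strand is not stated. The authors deposited raw counts per Ensembl transcript in 38118 entries, with transcript lengths and coordinates in bases as other columns. For each gene name the entry with the largest total count was kept (24599). filterByExpr (minimum count 10, minimum total 15) left 15746 genes. Counts were fitted with edgeR 4.0.16 in R 4.3.3 (TMM, robust quasi-likelihood, 14 group means over 54 libraries), with Benjamini-Hochberg adjustment and a threshold of 0.05. Alternatives used DESeq2 1.42.0, limma 3.58.1 (voom), other filters, normalisation and covariates, and fits without single libraries. The 3 genes and all lists were chosen with earlier results of these data known. Named genes were the 3, for each the 4 most like it, up to 4 called genes of a list, neighbours, STAT3 and VIP, and the text gives a part of them. CISH, CEBPB, GLUL, ARR3 and the marker genes singled out by level were named after their values were seen. The fit was tested on simulated data. Replicate numbers were not used to pair the samples in the main fit, and a replicate block was an alternative. Some withheld genes are not reported here.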

Additional observations from a re-analysis of the deposited data

Results flagged for a closer look

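Of 36 sets of 4 libraries tested (3 genes by 12 groups), 3 held a library far from the others by Dixon's test, where chance gives about 1 in 20. ANGPTL7 stood at 20.8 CPM in ADTN library 3 at 24 h, against at most 4.2 CPM in the other libraries. GLDN stood at 1.82 CPM in pirenzepine library 1 at 4 h, against 9.59 to 10.02 CPM. GLDN stood at 3.34 CPM in recovery library 3 at 24 h, against 0.430 to 0.588 CPM.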

How the results depend on the processing

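The log2 differences of the 3 genes from FDM with atropine and pirenzepine, and from the ADTN and TPMPA groups, stayed positive under all alternatives tried and without any single library. No tested difference of the 3 genes passed the threshold under any of them. Values close to 0 changed sign. For FDM against untreated at 4 h, ANGPTL7 gave 0.031 with voom. GLDN there gave 0.0052 with transcript entries summed, 0.082 with total count as a covariate, 0.057 with the vessel score, 0.21 with the small structural RNA level, 0.068 with voom and 0.025 with DESeq2. For atropine against pirenzepine at 4 h, ANGPTL7 gave 0.049 with total count and 0.72 with voom, and GLDN 0.0081 with small RNAs and 0.24 with voom. The causes were not tested.

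Without single libraries, FDM against untreated at 4 h ran from -0.27 to 0.18 for ADGRD2, -0.53 to 0.24 for ANGPTL7 and -0.23 to 0.34 for GLDN. Atropine against pirenzepine at 4 h ran from -0.66 to 0.15 for ANGPTL7 and -0.41 to 0.19 for GLDN. ANGPTL7 ran from -0.79 to 0.16 in TPMPA against FDM at 4 h, -0.35 to 0.70 in FDM against untreated at 24 h, -0.22 to 0.83 in recovery against untreated at 24 h and -0.15 to 0.53 in recovery against FDM at 24 h. In ADTN against FDM at 24 h it ran from 0.28 to 1.81. ADGRD2 in recovery against untreated at 24 h ran from -0.11 to 0.32, and GLDN in TPMPA against FDM at 24 h from -0.13 to 0.18.

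Counts of called genes moved more. FDM against untreated at 4 h called 27, and 8 with total count, 4 with only the groups compared, 2 with voom, 63 with DESeq2, and 3 to 73 without single libraries. Recovery against untreated at 4 h called 6, and 3 without a filter, 14 with entries summed, 0 with the replicate block, 2 with the vessel score, 0 with small RNAs, 0 with voom, 32 with DESeq2, and 0 to 51 without single libraries. Recovery against FDM at 4 h called 55, and 33 with the replicate block, 23 with the vessel score, 11 with only the groups, 13 with voom, 96 with DESeq2, and 9 to 67 without single libraries. Atropine against pirenzepine at 4 h called 0, and 5 with DESeq2 and 0 to 4 without single libraries. FDM against untreated at 24 h called 0, and 3 with the replicate block, 89 with only the groups, 28 with DESeq2, and 0 to 1 without single libraries.

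Recovery against untreated at 24 h called 103, and 396 with the replicate block, 54 with the vessel score, 371 with only the groups, 325 with DESeq2, and 24 to 104 without single libraries. Recovery against FDM at 24 h called 184, and 26 with only the groups, 345 with DESeq2, and 46 to 351 without single libraries. Atropine against pirenzepine at 24 h called 31, and 20 without a filter, 73 with the replicate block, 14 with small RNAs, 116 with only the groups, 110 with DESeq2, and 8 to 48 without single libraries. Untreated at 24 h against 4 h called 2, and 1 without a filter, 1 with the replicate block, 1 with total count, 0 with the vessel score, 1 with small RNAs, 0 with only the groups, 0 with voom, 22 with DESeq2, and 0 to 22 without single libraries.

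Same-numbered libraries had correlations of -0.22 to 0.54, in no comparison all above 0.1. So few pairs cannot show whether same-numbered libraries shared a batch, and the main fit did not pair them. With the replicate block, GLDN in atropine against pirenzepine at 24 h was -2.37 (edgeR adjusted p = 0.113). GLDN counts in retinas without a muscarinic antagonist were mostly under 10 a library, which limits the precision of its comparisons with them.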
